A study of Mus musculus with 6 samples.

Results

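Ribosomes are assembled in the nucleolus, where RNA polymerase I transcribes the ribosomal RNA precursor and a large set of proteins modify, cut and fold it. The 38 genes described here encode such proteins. They were chosen by name as the symbols that begin with Nop, Utp or Rrp followed by a digit, the RNA polymerase I subunit genes Polr1a to Polr1e, and Ncl, Npm1, Fbl, Dkc1, Rrs1, Bop1, Pes1, Wdr12, Nolc1 and Gar1. All 38 were among the 33924 symbols of the count tables, and all 38 passed the filter on low counts, which left 14250 genes to test.

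E14 mouse embryonic stem cells were profiled by RNA sequencing to compare 3 control libraries (labelled WT) with 3 Rif1-KO-labelled libraries. RIF1 binds chromatin, where it sets the timing of DNA replication and helps to keep genes silent. For both groups the labels give 2i medium, which holds the cells in naive pluripotency, gelatin-coated plates, treatment with 0.1 µM 4-OHT over 2 days, followed by 1 drug-free day. The headers of the files, however, have 2i in the column names of control alone and TAM in those of the other group, so an effect of drug or medium cannot be told apart from that of the genotype. The means by which Rif1 was disrupted, and whether the line is 1 clone, were not stated in the sources used here. Nor do the labels call the replicates independent cultures, so each p-value rests on the spread between these libraries, which may be technical.

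The libraries held 8383632 to 10980777 counts. Rif1 itself stood at 677 ± 21.9 CPM in control and 623 ± 35.5 CPM in the Rif1-KO-labelled libraries (SD, n = 3; adjusted p = 0.0509), and these whole-gene counts do not resolve single exons. CPM is counts of a gene scaled to the same library total, after that total was adjusted by a TMM factor of 0.9837 to 1.01. It is thus close to a share of the reads in a library and not an amount per cell. In bulk RNA, fewer cells of a type and less RNA per cell cannot be told apart. Of 6 pluripotency markers in the table, Nanog and Klf4 rose, Sox2 fell and 3 did not pass, and their summed level was 3405 to 3444 CPM in control and 3219 to 3288 CPM in the Rif1-KO-labelled libraries. Of 8 primitive endoderm markers 6 rose, and Col4a1 and Lama1 did not pass. Among all genes tested 26.1% rose and 24.8% fell, which is the background of the marker counts here. All 8 together summed to 685 to 697 CPM in control and 952 to 984 CPM in the Rif1-KO-labelled libraries. Sparc alone made up 262 to 281 CPM in control and 508 to 526 CPM in the Rif1-KO-labelled libraries. Lama1 made up 337 to 358 CPM in control and 344 to 364 CPM in the other group. Gata6 and Sox17 stayed under 4 CPM in every library. Sox17 stood at 0.442 to 0.541 CPM in control and at 1.21 to 1.97 CPM in the other group. It passed the filter on low counts through the latter alone, so its direction was set in advance. Of 7 trophectoderm markers Krt8 and Krt18 rose, Eomes did not pass and 4 were too low to test (summed 57.0 to 58.0 against 148 to 163 CPM), and Cdx2 had 0 counts in all 6 libraries. Of 6 fibroblast markers Thy1 fell, Col1a1 did not pass and 4 were too low to test (summed 11.2 to 18.8 against 8.75 to 9.19 CPM), and Postn and Dcn had at most 1 count in any library. The part of these other cell types in the results on the ribosome assembly genes was not tested.

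In this pathway the small nucleolar ribonucleoproteins (snoRNPs) modify rRNA, box C/D particles by methylation of the ribose and box H/ACA particles by pseudouridylation. The small subunit processome gathers on the precursor and releases the small subunit, while other factors process and export the large one. Embryonic stem cells divide quickly and have a high demand for ribosomes. In these cells nucleolin, with TRIM28 and LINE1 RNA, is known to take part both in rRNA synthesis and in the silencing of two-cell genes, a set normally read in the two-cell embryo.

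The promoters of 5 of the 38 genes are shown because they belong to genes among those that fell most (Nolc1, Ncl), of genes that fell and carry an E-box (Nop2, Pes1), and of a gene that rose (Dkc1). They were chosen after the values were seen. Each sequence is 300 bases, from 250 before the transcription start to 50 after it, read 5′ to 3′ on the strand of the gene, from RefSeq on GRCm38.p6, matched by symbol; the counts were made on another build. Capitals mark the E-box CACGTG, the site bound by MYC with MAX and by related factors, and the ETS core CCGGAA, which reads TTCCGG on the other strand. The regions are chr19:46075597-46075896 on the plus strand (Nolc1), chr1:86359406-86359705 on the minus strand (Ncl), chr6:125131633-125131932 on the plus strand (Nop2), chr11:3963725-3964024 on the plus strand (Pes1) and chrX:75095604-75095903 on the plus strand (Dkc1).
Nolc1: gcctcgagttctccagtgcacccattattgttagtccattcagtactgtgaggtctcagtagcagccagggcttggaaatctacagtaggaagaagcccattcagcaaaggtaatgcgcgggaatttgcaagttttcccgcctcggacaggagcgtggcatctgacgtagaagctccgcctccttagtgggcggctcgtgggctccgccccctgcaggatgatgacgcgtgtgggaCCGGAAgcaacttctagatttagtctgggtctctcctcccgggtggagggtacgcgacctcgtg
Ncl: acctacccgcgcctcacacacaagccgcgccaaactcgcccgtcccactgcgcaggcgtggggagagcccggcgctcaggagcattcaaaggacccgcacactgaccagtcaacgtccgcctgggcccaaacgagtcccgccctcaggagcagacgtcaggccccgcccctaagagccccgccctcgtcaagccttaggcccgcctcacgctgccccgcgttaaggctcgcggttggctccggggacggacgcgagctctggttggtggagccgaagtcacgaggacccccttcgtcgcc
Nop2: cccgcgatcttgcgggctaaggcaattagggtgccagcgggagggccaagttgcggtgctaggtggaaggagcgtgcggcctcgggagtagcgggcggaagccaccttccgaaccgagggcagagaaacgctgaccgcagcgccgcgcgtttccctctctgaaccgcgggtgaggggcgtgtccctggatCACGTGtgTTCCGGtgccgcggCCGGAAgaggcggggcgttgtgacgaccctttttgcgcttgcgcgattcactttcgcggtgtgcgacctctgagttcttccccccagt
Pes1: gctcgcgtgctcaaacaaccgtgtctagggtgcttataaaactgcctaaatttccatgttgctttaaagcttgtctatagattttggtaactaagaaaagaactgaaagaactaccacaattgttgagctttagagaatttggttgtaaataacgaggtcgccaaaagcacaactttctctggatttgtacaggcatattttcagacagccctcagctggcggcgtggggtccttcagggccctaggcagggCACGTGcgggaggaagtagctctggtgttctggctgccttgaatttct
Dkc1: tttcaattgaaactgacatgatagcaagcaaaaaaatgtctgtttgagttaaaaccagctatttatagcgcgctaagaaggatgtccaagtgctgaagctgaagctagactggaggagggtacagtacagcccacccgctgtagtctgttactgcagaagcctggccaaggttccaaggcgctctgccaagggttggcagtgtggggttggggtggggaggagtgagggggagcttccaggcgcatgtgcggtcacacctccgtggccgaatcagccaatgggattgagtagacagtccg

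Nop2 has an E-box 60 bases before its start and ETS cores 52 and 38 bases before it. Pes1 has an E-box 3 bases after its start, Nolc1 an ETS core 14 bases before its start, and the windows of Ncl and Dkc1 hold neither motif. RefSeq promoters were matched for 30 of the 38 genes (35 promoters). They were not matched for Bop1, Fbl, Npm1, Rrp12, Rrs1, Utp11l, Utp23 and Utp6. The E-box, searched on both strands, was in 6 of the 35 (17.1%), against 7.15% of all 32851 promoters in the table and 10% of 13542 promoters of tested genes. The ETS core was in 14 of the 35 (40.0%), against 14.9% and 26.1%. The TATA box, as TATAAA on either strand, was in 3 of the 35 (8.57%), against 13.6% and 6.95%. No E-box overlapped an ETS core in these promoters. By gene, the E-box was in 4 of the 22 that fell (Nop2, Pes1, Rrp7a and Utp18), in 1 of the 3 that rose (Utp14b) and in 1 of the 5 that did not pass (Utp20). The ETS core was in 11 of the 22 that fell, in 0 of the 3 that rose and in 2 of the 5 that did not pass (Nop58 and Polr1e). These shares describe letters in a fixed window and were not tested against each other.

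Most of the 38 genes were read less in the Rif1-KO-labelled libraries. Genes rose or fell, in the sense used here, where edgeR's quasi-likelihood test gave a Benjamini-Hochberg adjusted p under 0.05 over all 14250 genes, whatever the fold. By that rule 29 of the 38 (76.3%) fell, 4 (10.5%) rose and 5 (13.2%) did not pass. Among all genes tested 50.9% were called, of which 26.1% of the tested rose and 24.8% fell. The 38 are well-expressed genes, so a background was also taken of the 7645 genes with a mean of at least 23.1 CPM, the mean of the lowest of the 38, a bound chosen after the values were seen. Of those 60.5% were called, 27.9% rose and 32.6% fell. The median log2 fold change (Rif1-KO-labelled libraries over control) of the 38 was −0.30, against 0.0035 for all genes tested, and the values ran from −0.81 for Nolc1 to 0.39 for Rrp8. All 3 Rif1-KO-labelled libraries lay below all 3 controls at 31 of the 38, against 27.8% of all genes tested and 35.1% of the well-expressed ones. They lay above all controls at 4 genes, against 4196 of the 14250 genes tested and 2318 of the 7645 well-expressed ones. They overlapped the controls at 3 (Polr1d, Nop14 and Utp20), against 6099 and 2645. These shares were not tested against the background.

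**Figure D1:**
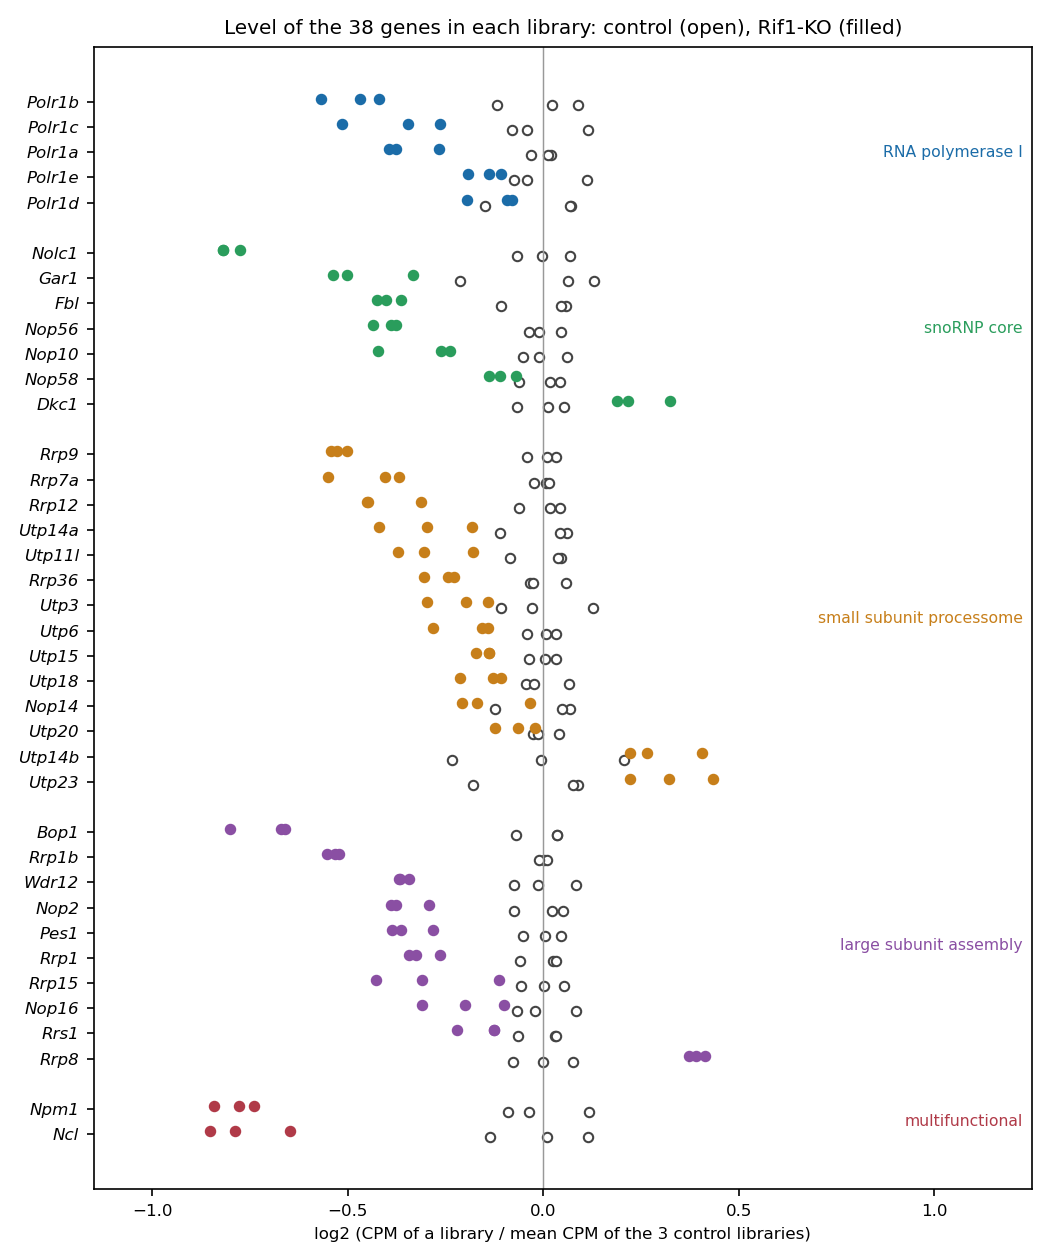
Level of each of the 38 genes in each of the 6 libraries, as log2 of its CPM over the mean CPM of the 3 control libraries (x axis), with genes in rows grouped and colored by role. Open points are control libraries and filled points the Rif1-KO-labelled libraries. The filled points lie left of all open ones at 31 genes and right of all of them at Dkc1, Rrp8, Utp14b and Utp23.

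**Figure D2:**
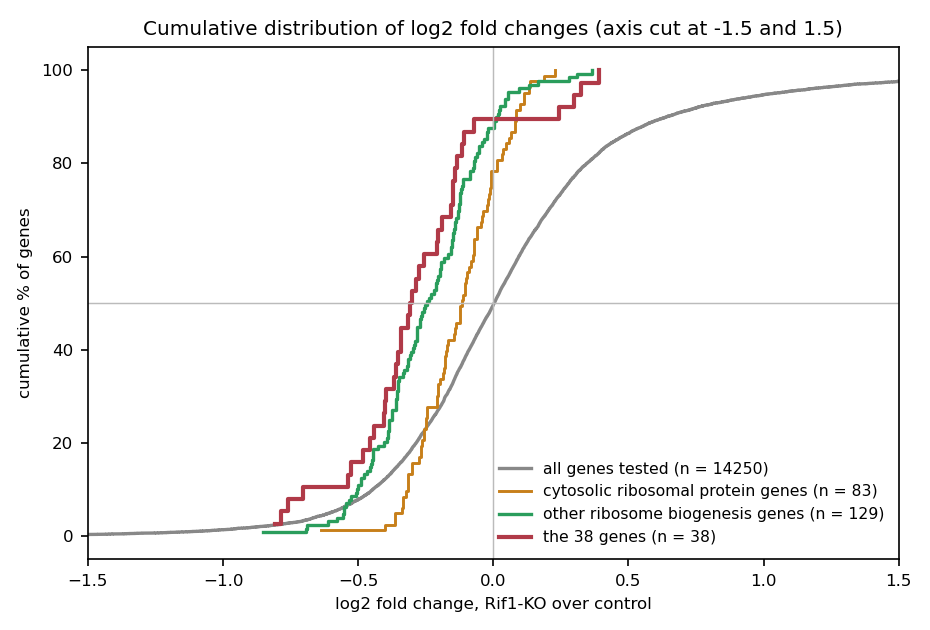
Cumulative share of genes (y axis, percent) by log2 fold change of the Rif1-KO-labelled libraries over control (x axis), with the axis cut at both ends. Curves are for the 38 genes, the 129 other genes listed for ribosome assembly (with Mpp6, which is outside the pathway), 83 cytosolic ribosomal protein genes and all genes tested. The curve of the 38 has its median at −0.30 and that of all genes tested at 0.0035.

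The summed level of the 38 was 7938, 8714 and 8312 CPM in the control libraries and 5824, 5989 and 6190 CPM in the Rif1-KO-labelled libraries, with no overlap. That is 8321 ± 388 against 6001 ± 183 CPM (SD, n = 3), and the sum fell by 27.9%. A pair of genes, Ncl and Npm1, made up 46.8% of the control sum of reads, which is not corrected for gene length, and their joint level was 41.6% lower. The other 36 together stood at 4428 ± 87.9 CPM in control and 3725 ± 68.8 CPM in the Rif1-KO-labelled libraries, 15.9% lower.

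The multifunctional nucleolar proteins, Ncl and Npm1, both fell, with a median log2 fold change of −0.77. Npm1 encodes nucleophosmin, an abundant chaperone that forms the outer, granular layer of the nucleolus. It stood at 2123, 2450 and 2204 CPM in control and at 1260, 1317 and 1352 CPM in the Rif1-KO-labelled libraries. Its groups were far apart, and the log2 fold change was −0.79 ± 0.05 (SE; adjusted p = 3.39e-10). Ncl encodes nucleolin, an RNA-binding protein of the dense nucleolar layer that takes part in rRNA transcription and early processing. It stood at 1487, 1771 and 1646 CPM in control and at 906, 946 and 1043 CPM in the Rif1-KO-labelled libraries. Again the groups did not overlap, and the log2 fold change was −0.76 ± 0.06 (adjusted p = 3.67e-09). Of Npm1's 50-base stretches 40.9% also occur in transcripts of other genes, more in Gm9118 than in any other, so part of its count depends on how the authors placed such reads, while for Ncl that share was 0.908%.

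**Figure D3:**
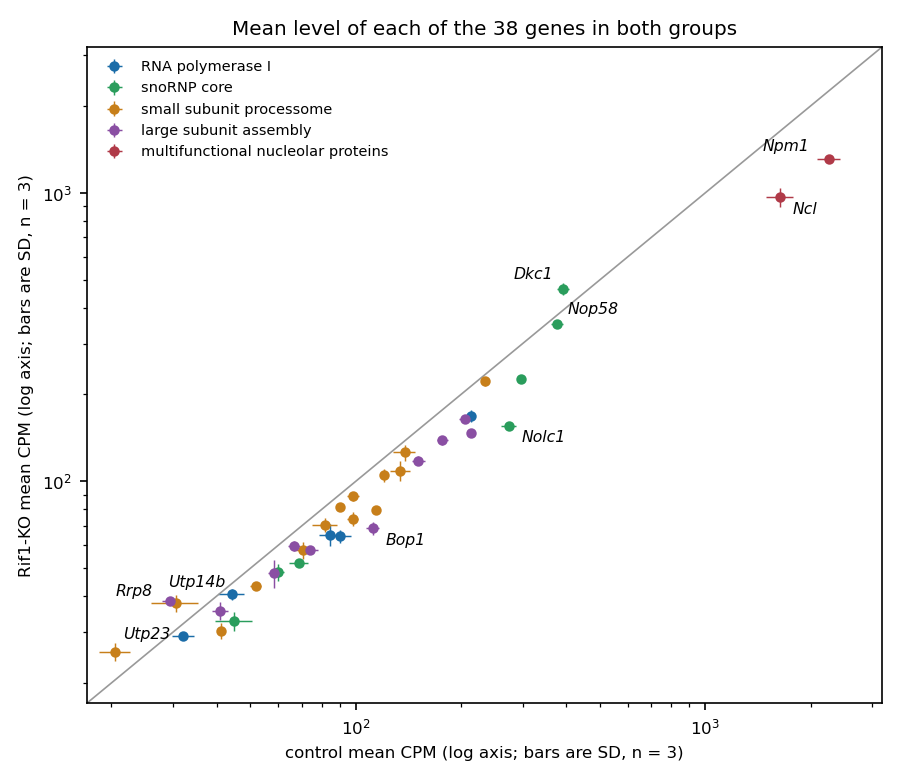
Mean CPM of each of the 38 genes in control (x axis) and in the Rif1-KO-labelled libraries (y axis), both on log axes, with SD over 3 libraries as bars, colored by role. Points under the diagonal were lower in the Rif1-KO-labelled libraries, and Npm1 (2259 against 1310 CPM) and Ncl (1635 against 965 CPM) have the most reads, which are not corrected for gene length.

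Of the 5 genes for RNA polymerase I subunits, 3 fell and 2 did not pass, with a median of −0.34. Polr1b, the second-largest subunit and part of the catalytic centre, was read at 95.8, 83.0 and 91.6 CPM in control and at 67.4, 65.1 and 60.8 CPM in the Rif1-KO-labelled libraries. The lowest control library was above the highest of the other group, and the log2 fold change was −0.48 ± 0.06 (adjusted p = 1.86e-06). Polr1a, the largest subunit and the other part of the catalytic centre, was read at 209.6, 217 and 216 CPM in control against 165, 163 and 178 CPM. The control libraries of this gene were nearly level, and all were above the other group (−0.34 ± 0.05; adjusted p = 5.5e-06). Polr1c, which RNA polymerase I shares with RNA polymerase III, was read at 91.6, 80.1 and 82.3 CPM in control against 70.5, 66.6 and 59.3 CPM. It too had no overlap (−0.37 ± 0.07; adjusted p = 0.000115). Its partner Polr1d, also shared with RNA polymerase III, was read at 46.4, 46.3 and 39.8 CPM in control against 41.8, 41.4 and 38.6 CPM. The third control library lay within the range of the other group (−0.12 ± 0.07; adjusted p = 0.187). For Polr1e, a subunit of a polymerase I-specific dimer, the log2 fold change was −0.14 ± 0.08 (adjusted p = 0.13).

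Of the 7 snoRNP genes 5 fell, Dkc1 rose and Nop58 did not pass, with a median of −0.40. Nolc1, a phosphoprotein that shuttles between the nucleolus and Cajal bodies and binds both kinds of snoRNP, had the smallest adjusted p of the 38. It was read at 261, 287 and 273 CPM in control and at 155, 155 and 159.7 CPM in the Rif1-KO-labelled libraries. The latter were nearly level, and the log2 fold change was −0.81 ± 0.05 (adjusted p = 3.97e-11).

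Of the 4 box C/D core proteins, Nop56, Fbl and Nhp2l1 fell and Nop58 did not pass. Nop56 was read at 307, 295 and 289.9 CPM in control and at 227, 229 and 220.0 CPM in the Rif1-KO-labelled libraries. Its groups were far apart (−0.40 ± 0.04; adjusted p = 4.13e-07), and 37.6% of its 50-base stretches also occur in transcripts of other genes. Its paralogue Nop58 was read at 361, 388 and 381 CPM in control against 342, 349 and 359 CPM. The groups did not overlap but lay close (−0.11 ± 0.05; adjusted p = 0.057), and 6 of 13 alternative fits called it lower. With a GC and length offset Nop58 had −0.33 (adjusted p = 3.14e-06), near the −0.39 of Nop56 and the −0.30 of Fbl under that offset. Nop58 was also called without the first control library (adjusted p = 0.0202) or without the third Rif1-KO-labelled library (adjusted p = 0.0322). The ratio of Nop56 to Nop58 counts within a library went from 0.790 ± 0.0518 to 0.646 ± 0.0281 (exact two-sided permutation p = 0.1, the smallest that 3 against 3 allows; 0.125 adjusted over 10 ratios), with no offset applied to the ratio. Fbl, the methyltransferase of the particle, was read at 71.7, 63.9 and 71.1 CPM in control against 52.1, 51.3 and 53.5 CPM. All its control libraries were higher (−0.40 ± 0.06; adjusted p = 1.72e-05), but 73.0% of the 50-base stretches of Fbl also occur in transcripts of other genes, more in Tulp4 than in any other, so its count is uncertain. Tulp4 itself rose (0.49; adjusted p = 3.34e-05). Nhp2l1, the box C/D protein that binds the snoRNA first, also fell (−0.55; adjusted p = 1.77e-06).

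The box H/ACA core divided by direction. Dkc1, dyskerin, the pseudouridine synthase that is also part of telomerase, rose. It was read at 374, 406 and 395 CPM in control and at 446, 455 and 490.0 CPM in the Rif1-KO-labelled libraries. All of the latter were above all controls (0.24 ± 0.05; adjusted p = 0.000373), and with a GC and length offset the value was smaller (0.14; adjusted p = 0.0142). Its partners Gar1 (−0.46 ± 0.09; adjusted p = 0.00017), Nop10 (−0.31 ± 0.07; adjusted p = 0.000518) and Nhp2 (−0.53 ± 0.05; adjusted p = 1.89e-08) fell. Within a library, the ratio of Dkc1 to Gar1 counts was 9.65, 8.26 and 8.41 in control and 14.4, 14.3 and 13.7 in the Rif1-KO-labelled libraries, and that of Dkc1 to Nop10 went from 6.55 ± 0.258 to 9.58 ± 0.444. Neither ratio overlapped between the groups (two-sided exact permutation p = 0.1 each, the least possible; 0.125 adjusted over 10 ratios). The genes of each ratio were chosen after their values were seen, and a ratio within a library shows unequal change only.

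**Figure D4:**
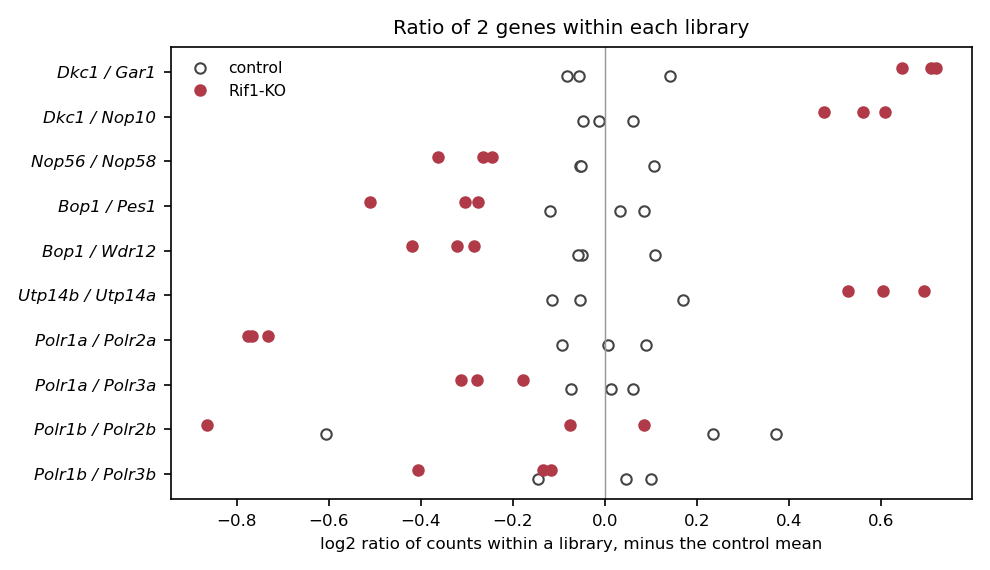
The 10 ratios of counts between genes of a complex or paralogues, as log2 of the ratio in a library minus the mean of the 3 control libraries (x axis), with open points for control and filled points for the Rif1-KO-labelled libraries. The ratios of Dkc1 to Gar1 and of Dkc1 to Nop10 are higher in all 3 Rif1-KO-labelled libraries, that of Polr1a to Polr2a is lower, and those of Polr1b to Polr2b and to Polr3b overlap.

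Of the 14 small subunit processome genes 10 fell, 2 rose and 2 did not pass, with a median of −0.20. Rrp9, the protein specific to the U3 snoRNP that guides the early cuts, was read at 111, 117 and 115 CPM in control and at 79.3, 80.7 and 78.4 CPM in the Rif1-KO-labelled libraries. Both groups were tight and apart (−0.53 ± 0.05; adjusted p = 3.57e-08). Rrp12, which serves late maturation and export, was read at 101, 94.0 and 99.3 CPM in control against 71.8, 79.0 and 71.9 CPM. Its groups did not overlap (−0.40 ± 0.06; adjusted p = 5.15e-06). Rrp7a, a subunit of an early processome module, was read at 41.4, 41.6 and 40.5 CPM in control against 28.1, 31.9 and 31.1 CPM. It was lower in all 3 libraries (−0.44 ± 0.07; adjusted p = 3.86e-05), while 21.6% of its 50-base stretches also occur in transcripts of other genes, more in Serhl than in any other. Serhl overlaps it on the opposite strand and did not pass (adjusted p = 0.704).

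The other 7 that fell were Utp14a (−0.30), Utp11l (−0.29), Rrp36 (−0.26), Utp3 (−0.21), Utp6 (−0.19), Utp15 (−0.15) and Utp18 (−0.15), with adjusted p-values from 0.000322 to 0.0249. With a GC and length offset Utp6 (−0.30), Utp15 (−0.25) and Utp18 (−0.27) fell more and Rrp36 (−0.17) less, with adjusted p-values from 5.18e-05 to 0.0228. Utp3, Utp15 and Utp18 lost the call when a library was left out. For Utp3 it was the second control library (adjusted p = 0.0698) or the first Rif1-KO-labelled one (adjusted p = 0.0654). For Utp15 it was the second control library (adjusted p = 0.0567), the third (adjusted p = 0.0582) or the second Rif1-KO-labelled one (adjusted p = 0.0673). For Utp18 it was the third control library (adjusted p = 0.138) or the third Rif1-KO-labelled one (adjusted p = 0.0836). With DESeq2 the calls of Utp15 (adjusted p = 0.079) and Utp18 (adjusted p = 0.081) were lost too. Utp20, a large scaffold protein, was read at 229, 231 and 239.9 CPM in control and at 223, 214 and 229.7 CPM in the Rif1-KO-labelled libraries. Its groups overlapped (−0.07 ± 0.05; adjusted p = 0.19), and with a GC and length offset it was called lower (adjusted p = 0.000102). Nop14, another scaffold protein, had −0.13 ± 0.06 (adjusted p = 0.0623), and was called lower under 5 of 13 alternative fits, among them those without the first control library (adjusted p = 0.00569) and without the third Rif1-KO-labelled library (adjusted p = 0.00988).

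Utp23 and Utp14b rose, on low counts. Utp23, a protein tied to the release of a snoRNA from the precursor, was read at 21.8, 21.6 and 18.1 CPM in control and at 23.9, 27.7 and 25.6 CPM in the Rif1-KO-labelled libraries. Its groups did not overlap (0.32 ± 0.09; adjusted p = 0.00697), but the call was lost with DESeq2 (adjusted p = 0.0531) and without the third control library (adjusted p = 0.0638). Of Utp23's exon bases 11.5% lie across from exons of Gm34678 on the opposite strand. Other genes share 12.2% of its 50-base stretches, Gm34678 more than any other (8.77%), and the part of that overlap was not tested. Utp14b, a copy of the X-linked Utp14a known for its need in the male germ line, was read at 26.1, 30.6 and 35.4 CPM in control against 36.9, 35.8 and 40.7 CPM. The gap between the groups was narrow (0.30 ± 0.09; adjusted p = 0.0106), and the call was lost with DESeq2 (adjusted p = 0.0501), with a GC and length offset (0.10; adjusted p = 0.335) and without the first control library (adjusted p = 0.0817). Utp14b lies within Acsl3 on the same strand, with 3.18% of its exon bases in exons of Acsl3, which also rose (0.32; adjusted p = 8.1e-05), and the part of that overlap was not tested. The ratio of Utp14b to Utp14a counts was 0.228 ± 0.0243 in control and 0.347 ± 0.0203 in the Rif1-KO-labelled libraries. The groups did not overlap (two-sided exact permutation p = 0.1, the least possible, and 0.125 adjusted over 10 ratios). No GC and length offset was applied to the ratio. Of Utp14a's 50-base stretches 15.5% also occur in 9530027J09Rik, which lies across from 11.5% of its exon bases on the opposite strand.

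Of the 10 large subunit genes 9 fell and Rrp8 rose, with a median of −0.33. The PeBoW complex of Pes1, Bop1 and Wdr12, which large subunit rRNA processing needs, was lower in all 3 of its genes. Bop1 was read at 115, 107 and 115 CPM in control and at 70.6, 71.0 and 64.5 CPM in the Rif1-KO-labelled libraries. That was the largest fall of the 10 (−0.70 ± 0.06; adjusted p = 2.72e-09). Pes1 was read at 170.2, 182 and 177 CPM in control against 137, 135 and 145 CPM. Its groups were apart (−0.34 ± 0.05; adjusted p = 6.39e-06), with 24.1% of its 50-base stretches shared with other transcripts, more with Gm5910 than with any other gene. Wdr12 had −0.36 ± 0.06 (adjusted p = 3.23e-05), and with a GC and length offset −0.59 (adjusted p = 1.5e-07), near the −0.64 of Bop1 under that offset. The ratio of Bop1 to Pes1 counts went from 0.635 ± 0.046 to 0.494 ± 0.0429 and that of Bop1 to Wdr12 from 1.52 ± 0.102 to 1.19 ± 0.0601, neither with overlap (two-sided exact permutation p = 0.1 each, the least possible; 0.125 adjusted over 10 ratios). No GC and length offset was applied to these ratios, and under that offset Bop1 and Wdr12 changed by nearly the same amount.

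Rrp1b, a nucleolar protein of large subunit assembly, was read at 213, 214 and 211 CPM in control and at 147, 148 and 145 CPM in the Rif1-KO-labelled libraries. Its libraries were nearly level within each group and far apart between them (−0.54 ± 0.04; adjusted p = 4.46e-09). Its paralogue Rrp1 had −0.31, and Nop2, an rRNA methyltransferase, had −0.35 (adjusted p = 1.24e-05 and 6.99e-06). Rrp15 (−0.28; adjusted p = 0.0034), Nop16 (−0.20; adjusted p = 0.0264) and Rrs1 (−0.16; adjusted p = 0.0292), which helps to load the smallest large-subunit rRNA with its proteins, also fell, and the calls of Nop16 and Rrs1 were each lost under 5 of 13 alternative fits. The call of Nop16 was lost without the second control library (adjusted p = 0.104), the third (adjusted p = 0.0513), the first Rif1-KO-labelled library (adjusted p = 0.15) or the second (adjusted p = 0.0608). That of Rrs1 was lost without the second control library (adjusted p = 0.0756), the third (adjusted p = 0.107) or the first Rif1-KO-labelled library (adjusted p = 0.14). Rrp8, a methyltransferase of large subunit rRNA also known from a complex that silences rRNA genes, rose from 29.4, 27.9 and 31.0 CPM to 38.1, 39.2 and 38.6 CPM. Its groups did not overlap (0.39 ± 0.07; adjusted p = 0.000134). Of Rrp8's exon bases 9.98% lie across from exons of Ilk on the opposite strand, which rose from 1.96 ± 0.864 to 5.92 ± 0.0862 CPM. As the strand setting of the counting is not given in the sources used here, reads from that overlap cannot be told apart.

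Across the rest of the pathway, 133 further genes in 5 lists, drawn up by what they encode, gave 129 tested genes. They include Mpp6, taken in by its symbol, which encodes a protein outside the pathway and rose. Of the 129 genes 81 (62.8%) fell, 5 (3.88%) rose and 43 did not pass, with a median of −0.25. The backgrounds given above (24.8% of all genes tested and 32.6% of the well-expressed fell) apply to them and to the lists that follow, and the 4 not tested (Taf1a, Noc2l, Tma16 and Exosc6) are not analysed here. Of 14 other RNA polymerase I genes 5 fell and 0 rose. The largest fall was in Cd3eap, the partner of Polr1e in the polymerase I-specific dimer, at −0.85 ± 0.10 (adjusted p = 3.58e-07). Ubtf, the factor that coats active rRNA genes, had −0.38 ± 0.05 (adjusted p = 1.29e-06), and Taf1d, a subunit of the selectivity factor, −0.21 ± 0.06 (adjusted p = 0.00542). Polr2e, shared by all 3 polymerases, had −0.04 ± 0.05 (adjusted p = 0.463).

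Of 12 other snoRNP genes 9 fell and Znhit3, an assembly factor, rose (0.36; adjusted p = 0.0118). The smallest adjusted p-values were those of Tcof1, treacle, which links rRNA transcription to modification (−0.58 ± 0.05; adjusted p = 9.18e-09), Ruvbl2, an ATPase of the assembly machinery (−0.49 ± 0.04; adjusted p = 1.7e-08), and Nhp2. Naf1, an H/ACA assembly factor, had 0.05 ± 0.06 (adjusted p = 0.495).

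Of 41 other small subunit genes 27 fell and 0 rose. Nol6 (−0.55 ± 0.05; adjusted p = 1.16e-08), Cirh1a (−0.46 ± 0.05; adjusted p = 1.57e-07) and Heatr1 (−0.43 ± 0.05; adjusted p = 1.21e-06), all processome proteins, had the smallest adjusted p-values, while Wdr36 had 0.04 ± 0.05 (adjusted p = 0.47). Of 47 tested large subunit genes 30 fell and 1, Sbds, rose (0.28; adjusted p = 0.00206). Sbds releases the anti-association factor eIF6 from the late particle. Ppan (−0.69 ± 0.06; adjusted p = 6.97e-09), Wdr18 (−0.61 ± 0.05; adjusted p = 1.19e-08) and the helicase Ddx27 (−0.50 ± 0.05; adjusted p = 5.9e-08) had the smallest adjusted p-values, and Senp3, a SUMO protease of the nucleolus, had −0.05 ± 0.04 (adjusted p = 0.338).

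Of 15 tested genes listed for the RNA exosome, which trims rRNA precursors, and its helpers, 10 fell and 3 rose. Exosc2 (−0.53 ± 0.07; adjusted p = 2.72e-06), Mphosph6 (−0.55 ± 0.08; adjusted p = 1.12e-05) and Exosc1 (−0.51 ± 0.08; adjusted p = 1.83e-05) fell, while the core subunit Exosc9 had −0.02 ± 0.07 (adjusted p = 0.795). The 3 that rose were the exosome cofactor C1d (0.31), the exonuclease Xrn2 (0.13) and Mpp6 (0.17), with adjusted p-values from 0.00426 to 0.0209. In mouse the symbol Mpp6 names a membrane scaffold gene, so it is not an exosome gene. The exosome cofactor MPP6 is encoded by Mphosph6, which fell.

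Genes of related machinery are given beside these as values only, and the lists were not tested against each other. Of 83 cytosolic ribosomal protein genes 40 (48.2%) fell, 1 (Rpl10l) rose and 42 did not pass, with a median of −0.11, nearer to 0 than the −0.30 of the assembly genes. Of 11 subunits found only in RNA polymerase III 6 fell and 0 rose (median −0.26). Of 7 found only in RNA polymerase II, Polr2i and Polr2j fell and the largest subunit, Polr2a, rose (0.42 ± 0.06; adjusted p = 4.75e-06). The ratio of Polr1a to Polr2a counts within a library went from 0.269 ± 0.017 to 0.159 ± 0.00304, and that of Polr1a to Polr3a from 3.03 ± 0.142 to 2.54 ± 0.122, neither with overlap (two-sided exact permutation p = 0.1 each, the least possible; 0.125 adjusted over 10 ratios). The ratio of Polr1b to Polr3b overlapped between the groups (0.981 ± 0.0867 against 0.845 ± 0.0915; exact two-sided permutation p = 0.3; 0.333 adjusted), as did that of Polr1b to Polr2b (p = 0.5), where Polr2b was listed at only 1.08 to 2.49 CPM.

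**Figure D5:**
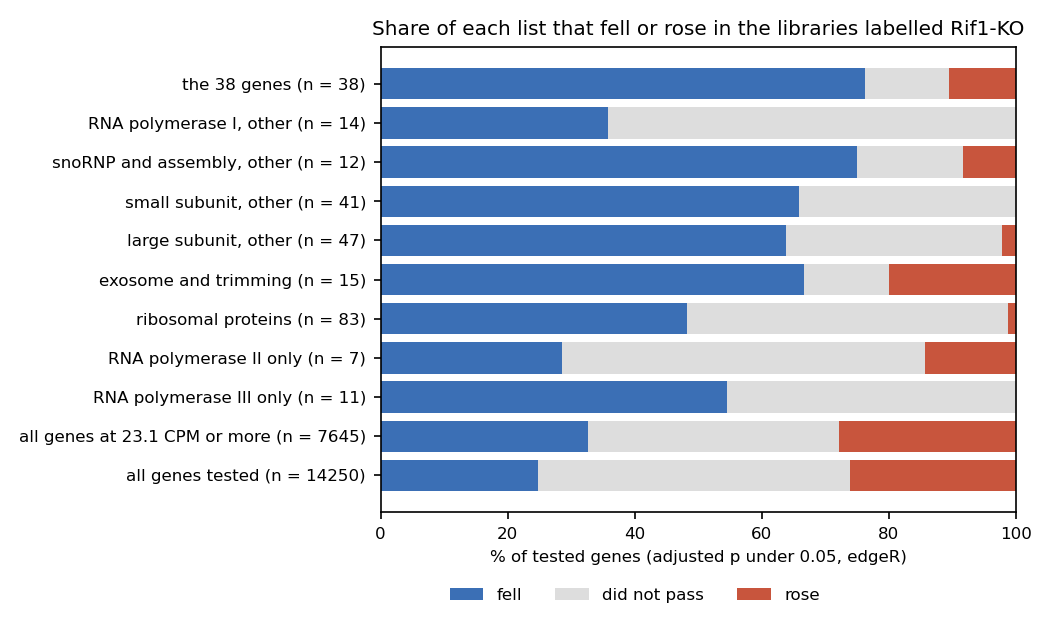
Share of tested genes that fell, rose or did not pass (percent of each list) for the 38 genes, the 5 lists of other pathway genes, the ribosomal protein and polymerase lists, the well-expressed genes and all genes tested. The blue bars reach 76.3% for the 38 genes, 48.2% for ribosomal protein genes and 24.8% for all genes tested.

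The files hold no usable rRNA count, since n-R5s1 was the only rRNA symbol in the tables and had 0 counts, and an mRNA kit was used, so rRNA synthesis itself was not analysed here. Of 107 snoRNA genes only 13 were read enough to test. Among the 13, Snora28 and Snord19 (15.4%) fell, against 24.8% of all genes tested, and 11 did not pass. Both that fell were low, Snora28 at 2.71 to 4.65 CPM (adjusted p = 0.0477) and Snord19 at 1.63 to 3.89 CPM (adjusted p = 0.0108). In the annotation (GENCODE, GRCm38), snoRNA genes lie inside Nop56 (5), Nop58 (4), Ncl (3) and Dkc1 (1). Of these Nop56 and Ncl fell, Nop58 did not pass and Dkc1 rose, and the only one of those snoRNAs tested, Snord70 in Nop58, had −0.50 ± 0.34 (adjusted p = 0.231).

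Genes tied to nucleolar activity in stem cells also differed. Mycn, the MYC family member that binds E-boxes at many ribosome assembly genes, was read at 118, 106 and 106 CPM in control and at 52.2, 54.4 and 47.8 CPM in the Rif1-KO-labelled libraries. No library of either group came near the other (−1.10 ± 0.06; adjusted p = 2.1e-11). Mycl1 (−0.38; adjusted p = 0.00226) and the partner Max (−0.35; adjusted p = 7.26e-05) fell, and Myc was too low to test, at 0.449 ± 0.0882 and 0.743 ± 0.28 CPM. Trim28, the corepressor that works with nucleolin on two-cell genes, fell from 1089 ± 33.1 to 785 ± 46.5 CPM (−0.47 ± 0.05; adjusted p = 1.81e-07), and Lin28a, an RNA-binding protein also placed in the nucleolus, fell from 229 ± 6.1 to 165 ± 2.19 CPM (−0.47 ± 0.04; adjusted p = 3.99e-08). The 9 two-cell genes listed, such as Zscan4c and Zfp352, summed to 0.216, 0.486 and 0.332 CPM in control and to 35.7, 36.1 and 38 CPM in the Rif1-KO-labelled libraries. Of these 8 were tested and rose, a direction set in advance by the low-count filter, since their control levels were near 0.

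Of 8 genes of the p53 response to disturbed ribosome assembly, 5 fell, 2 rose and Ccng1 did not pass (adjusted p = 0.183), while 50.9% of all genes tested and 60.5% of the well-expressed were called in either direction. Rpl5 (−0.26; adjusted p = 0.00013) and Rpl11 (−0.36; adjusted p = 8.56e-06), ribosomal proteins that bind MDM2 when assembly fails, fell. Trp53 fell from 230.2 ± 3.47 to 136 ± 3.31 CPM (−0.76 ± 0.04; adjusted p = 4.56e-11). Mdm2, which degrades p53, rose (0.22; adjusted p = 0.00029), as did the p53 target Cdkn1a (0.16; adjusted p = 0.0159), while the targets Bax (−0.29; adjusted p = 2.61e-05) and Sesn2 (−0.27; adjusted p = 0.000137) fell.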

How the data were processed

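Per the labels' protocols, an mRNA kit turned 200 ng of total RNA into each library. What the authors deposited are unnormalized read counts by gene symbol, in a separate table for each of the 3 control libraries and the 3 labelled Rif1-KO. Per the submitters' processing notes, alignment used STAR, counting used featureCounts 1.6.2 and the build was mm9. Annotation release, strandedness of the counting and treatment of multi-mapped reads were not stated in the sources used here, so counts of overlapping or near-identical genes are uncertain.

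From the deposited counts, a quasi-likelihood model with group as its only term was fitted to all 6 libraries in edgeR 4.0.16 (R 4.3.3), after TMM scaling and filterByExpr. Adjusted p-values are Benjamini-Hochberg values over 14250 genes from this model, except where DESeq2 or an alternative is named. CPM values use the TMM-scaled library size and carry the SD over 3 libraries, while log2 fold changes carry the model's standard error. CPM is not corrected for gene length, so a higher CPM of one gene than of another means more reads, not more transcripts. No sample was dropped or imputed, and total counts per library limit the precision. Every pair of repeats differed beyond counting noise, so none was treated as a library deposited in duplicate, which does not show that they are independent cultures.

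The 38 genes, the lists and the rule for named genes were chosen with earlier results of these data known. The rule gives values in every library for the 3 genes of each role with the smallest adjusted p and for the highest-read gene that did not pass. Of each list of other pathway genes it names the 3 with the smallest adjusted p and the highest-read that did not pass. Genes that rose, and others named beside these, were added after their values were seen. Exact permutation tests of ratios took all 20 regroupings of 3 against 3, on counts with no GC and length offset. Names, GC content, transcript length, overlaps and shared sequence (50-base stretches) came from GENCODE and promoters from RefSeq, both on GRCm38, another build than that of the counts. Alternatives were DESeq2 1.42.0, voom in limma 3.58.1, other scalings, no filter on low counts, a replicate block, an offset for GC content and length, and leaving out each library.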

Additional observations from a re-analysis of the deposited data

How the results depend on the processing

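Over 13 alternative fits the count of the 38 genes that fell ran from 25 to 31, none of the 38 changed sign, and 24 of the 29 that fell kept that call in every fit. The exceptions were Nop16, Rrs1, Utp15, Utp18 and Utp3. Of the 4 that rose, Dkc1 and Rrp8 kept the call in every fit, Dkc1 at 0.14 with an offset for GC content and length. DESeq2 called 25 of the 38 lower and 2 higher, and 2 of the other 129 pathway genes higher, as did the offset for GC content and length. Leaving out each library in turn gave 25 to 31 lower and 3 to 4 higher of the 38, 3 to 5 of the other pathway genes higher, and a median of the 38 from −0.34 (without Rif1-KO replicate 3) to −0.27 (without Rif1-KO replicate 1). Sign changed in genes that did not pass: with the offset Polr2e had 0.0694 (adjusted p = 0.156), Senp3 0.0023 (adjusted p = 0.969) and Wdr36 −0.10 (adjusted p = 0.0673), and Exosc9 ran from −0.0869 (without control replicate 3) to 0.0135 when libraries were left out, above 0 at 0.0135 without control replicate 1 and at 0.0072 without Rif1-KO replicate 3. The cause was not tested. The offset moved the median of all tested genes from 0.0035 to −0.03.

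Libraries with the same replicate number did not deviate together (correlations of 0.0793, −0.0646 and 0.0461 across genes). No sign of pairing by number was seen, but these values cannot show that same-numbered libraries were handled apart. With a replicate block 31 of the 38 were lower and 4 higher, and 3607 of all genes were lower and 3779 higher.

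Among the 38, standard errors of the log2 fold change ran from 0.04 (Rrp1b) to 0.09 (Utp23, the gene with the lowest mean), so small changes were hardest to detect in the lowest-read genes. With 3 libraries a group, an exact permutation test of a ratio cannot go below 0.1.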
